A study of Mus musculus with 12 samples.

Results

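Satellite glia are the flattened glial cells that wrap the cell bodies of sensory neurons in the dorsal root ganglion (DRG). They take up potassium and glutamate released around the neuron, are coupled to each other by gap junctions, and carry lipid and matrix proteins to the neuronal surface. The 10 genes described here are commonly used to recognise them: Fabp7, Cdh19, Kcnj10, Slc1a3, Glul, Gja1, Apoe, Ptn, Sparcl1 and Bcan. They were taken by symbol as a list, and no measured value enters the rule, although the list was drawn up with earlier results of these data known. All 10 are among the 48795 gene IDs of the count table, and all 10 passed the filter on low counts, as did 16831 genes in all. None is exclusive to satellite glia: Cdh19 also marks Schwann cell precursors, Gja1 is made by fibroblasts and vascular cells, Apoe by macrophages, and Glul, Sparcl1 and Ptn by several other cells of a ganglion.

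Total RNA was sequenced from 12 primary DRG cultures of C57/Bl6 wild-type mice, in 3 groups of 4. The first group received at 50 nM a mix of antisense oligonucleotides (ASOs) directed at GI-SINE RNA, transcripts of B2 repeats, and the second a control ASO at 50 nM. The third was left untransfected. Each of 4 mice gave 1 culture that was divided among the 3 conditions, so every comparison is within mice, and a whole-ganglion culture holds neurons, glia and other cells together. Since all transfected cultures received an ASO, effects of the control ASO and of the transfection cannot be told apart. The labels state neither age or sex of the mice nor days in culture, and the level of GI-SINE RNA was not analysed here.

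Total counts per library ranged from 16416459 to 21250125 with the mix, from 14864622 to 22704267 with the control ASO and from 16971091 to 22668448 in untransfected cultures. All 14 pan-neuronal genes listed, such as Tubb3 and Prph, passed the filter, as did 9 of 10 pan-glial genes (all but Gfap), so the cultures held RNA of both classes. The 3 libraries of mouse 4 stood apart from the other 9 on the third principal component (9.87% of the variance), at -36.8 to -23.0 against 6.03 to 17.6, and calls that depend on that mouse are named. On the first component (57.3%) its mix library lay at -25.9. The other mix libraries lay at -72.3 to -64.4 there, and the control ASO libraries at -0.300 to 15.3. No 2 libraries of the same group were alike within sampling noise, and pairs across groups were not compared in this way. Levels below are given in CPM, the count relative to the library total after scaling by the trimmed mean of M values (TMM), and RPKM is that value per kilobase of annotated exon.

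The 10 markers differed widely in level. Per length, Glul and Apoe were the highest in every group, at 132 ± 32.7 and 86.2 ± 19.2 RPKM with the mix, 107 ± 24.7 and 74.8 ± 10.2 RPKM with the control ASO and 109 ± 29.6 and 73.1 ± 15.9 RPKM in untransfected cultures (SD, n = 4). In untransfected cultures 98.4% and 97.3% of tested genes lay below them. Sparcl1 came next there at 14.8 ± 0.463 RPKM, followed by Cdh19 (4.21 ± 0.845), Fabp7 (3.54 ± 0.805), Ptn (2.84 ± 0.726), Kcnj10 (1.93 ± 0.317), Gja1 (1.68 ± 0.371) and Bcan (1.08 ± 0.308 RPKM). From Cdh19 down to Gja1 each marker's range over the 4 mice overlapped that of the next, as did those of Glul and Apoe. Slc1a3 was last in all 3 groups, at 0.129 ± 0.0371 RPKM in untransfected cultures, where 3.9% of tested genes lay below it. Its raw counts were 4 to 21 with the mix, 5 to 11 with the control ASO and 13 to 35 untransfected, so it was barely covered. Raw counts with the mix were also low for Fabp7 (9 to 17), Kcnj10 (10 to 15) and Cdh19 (13 to 28), so their fold changes below rest on few reads there.

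**Figure D1:**
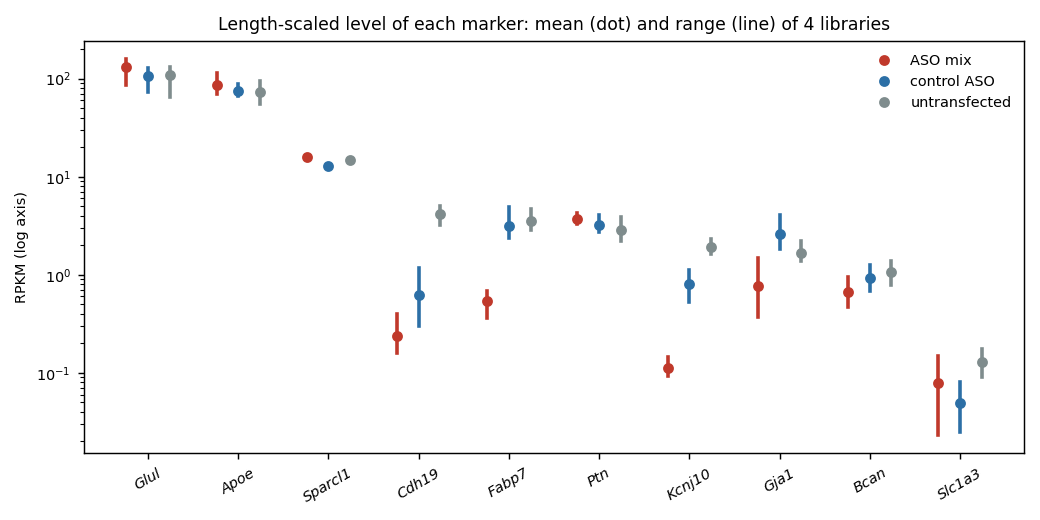
Level of each satellite glia marker per length (RPKM, log axis) by group; dots are means and lines the range of 4 libraries, in the order of the untransfected level. Glul and Apoe are the highest in every group, while Cdh19, Kcnj10 and Fabp7 reach 0.236, 0.113 and 0.541 RPKM with the mix.

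Because Glul and Apoe dominate, the summed level of the list says little about the other members. Glul and Apoe made up 84.3% to 91.7% of the summed CPM of the 10 markers with the mix, 79.0% to 88.0% with the control ASO and 73.0% to 85.7% untransfected. Fabp7, Kcnj10 and Cdh19 together made up 0.261% to 0.552% with the mix, 1.09% to 2.54% with the control ASO and 4.21% to 8.37% untransfected. The summed CPM of all 10 was 540 to 834 with the mix, 513 to 672 with the control ASO and 459 to 725 untransfected, ranges that overlap. The sum of Fabp7, Kcnj10 and Cdh19 was 1.77 to 2.98 CPM with the mix, 7.14 to 17.1 CPM with the control ASO and 26.9 to 38.4 CPM untransfected. These 3 were singled out after their values were seen, for being low with the mix, so their order over the groups is a description.

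With the GI-SINE ASO mix against the control ASO, 5 of the 10 markers fell (Kcnj10, Fabp7, Gja1, Cdh19 and Bcan), 2 rose (Glul and Sparcl1) and 3 did not pass the test (Apoe, Ptn and Slc1a3). Genes were tested with edgeR's quasi-likelihood model with the mouse as a block, and a gene was called at a Benjamini-Hochberg adjusted p under 0.05 over all tested genes. Across the transcriptome this comparison called 56.2% of genes, 27.3% higher and 28.8% lower (48.7% of calls higher, or 34.0% with scaling by library size only), so a call by itself says little. The median log2 fold change was -0.13 over the 10 markers and -0.03 over all tested genes.

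Kcnj10, the inward rectifier channel Kir4.1 that clears potassium around the neuron (ENSMUSG00000044708, GRCm38 chromosome 1, 172341210 to 172374085), had 0.500, 0.783, 0.558 and 0.609 CPM with the mix in mice 1 to 4. The same mice had 2.88, 6.02, 3.25 and 5.07 CPM with the control ASO and 8.76, 11.2, 9.35 and 12.5 CPM untransfected. The 3 groups did not overlap, and the order was the same in all 4 mice. Against the control ASO, Kcnj10 with the mix fell by 2.78 ± 0.20 on the log2 scale (SE; 6.86-fold lower, adjusted p = 1.73e-08), and only 0.137% of tested genes had a lower log2 fold change. In bulk RNA, fewer cells of a type and less of an RNA per cell cannot be told apart, here or for any marker below.

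Fabp7, the fatty acid-binding protein of immature and satellite glia (ENSMUSG00000019874, chromosome 10, 57784881 to 57788450), had 0.850, 0.731, 0.456 and 0.669 CPM with the mix, against 2.97, 6.10, 3.36 and 3.34 CPM with the control ASO. Untransfected cultures had 3.59, 5.84, 3.85 and 4.41 CPM. The mix libraries lay apart from both other groups, which overlapped each other. The fall against the control ASO was 2.51 ± 0.22 on the log2 scale (5.69-fold lower, adjusted p = 7.74e-08), with 4 of 4 mice lower.

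Gja1, which encodes connexin 43, a gap junction subunit of glia and fibroblasts (ENSMUSG00000050953, chromosome 10, 56377330 to 56402513), had 3.80, 7.25, 5.63 and 15.2 CPM with the mix and 18.8, 25.4, 20.5 and 41.7 CPM with the control ASO. It had 15.3, 16.6, 14.3 and 22.8 CPM untransfected. Mouse 4 was the highest of the 4 mice in every group. Gja1 fell by 1.79 ± 0.16 on the log2 scale with the mix (3.47-fold lower, adjusted p = 1.58e-06), without overlap between these groups.

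The stretch before the annotated start is shown for these 3 markers, whose levels fell without overlap, beside that of Apoe, which did not pass the test. The share of all tested genes without overlap was not counted, so lack of overlap, here and elsewhere, only describes a marker. Start sites and sequences are those of RefSeq on GRCm38.p6, which had an entry for 8 of the 10 markers, and each runs 5′ to 3′ on the gene's strand. The Kcnj10 stretch is chr1:172340960-172341209 on the plus strand, that of Fabp7 chr10:57784673-57784880 (plus), that of Gja1 chr10:56377050-56377299 (plus) and that of Apoe chr7:19699189-19699438 (minus). The stretch of Fabp7 was shortened to 208 bases so that it ends before the gene as GENCODE annotates it. Capitals mark matches to the SOX core (ACAAAG or ACAATG), the RBPJ core of Notch signalling (GTGGGAA) or a TATA box (TATAAA), on either strand.
Kcnj10: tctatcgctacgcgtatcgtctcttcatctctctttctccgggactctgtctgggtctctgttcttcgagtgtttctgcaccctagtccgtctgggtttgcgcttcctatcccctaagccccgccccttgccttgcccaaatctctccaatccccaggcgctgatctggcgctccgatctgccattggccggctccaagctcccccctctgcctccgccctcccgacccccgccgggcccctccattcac
Fabp7: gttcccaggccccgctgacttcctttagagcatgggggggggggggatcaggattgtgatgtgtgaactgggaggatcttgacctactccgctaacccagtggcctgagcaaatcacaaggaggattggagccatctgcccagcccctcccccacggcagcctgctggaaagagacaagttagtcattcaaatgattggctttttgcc
Gja1: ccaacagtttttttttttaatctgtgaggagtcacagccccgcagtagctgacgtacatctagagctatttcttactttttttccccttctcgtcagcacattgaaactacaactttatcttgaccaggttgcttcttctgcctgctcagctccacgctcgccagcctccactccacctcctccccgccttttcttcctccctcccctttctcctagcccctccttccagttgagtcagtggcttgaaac
Apoe: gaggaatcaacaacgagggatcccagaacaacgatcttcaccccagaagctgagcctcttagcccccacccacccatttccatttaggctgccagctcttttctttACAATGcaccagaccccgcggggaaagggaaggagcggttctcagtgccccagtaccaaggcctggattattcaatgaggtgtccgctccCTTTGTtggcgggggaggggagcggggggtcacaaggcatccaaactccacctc
Apoe held 2 SOX core matches, and the 250 bases before the start of Kcnj10, Fabp7 and Gja1 held none of the motifs. Those of Glul, Slc1a3, Ptn and Bcan, not shown, held no SOX core either. Apoe was thus the only one of the 8 markers with an entry that held a SOX core. The stretch of Slc1a3 held 1 TATA box match. Whether a motif goes with the change of a marker was not tested. Of 32851 RefSeq windows of that length, 25.2% held a SOX core, 5.42% an RBPJ core and 12.4% a TATA box. The GC content was 62.0% for Kcnj10, 54.8% for Fabp7, 50.0% for Gja1 and 57.2% for Apoe, against a median of 52.4% over all windows.

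Cdh19, a cadherin of glial precursors (ENSMUSG00000047216, chromosome 1, 110888326 to 110977584), was already low with the control ASO. It had 0.899, 0.678, 0.760 and 1.70 CPM with the mix, 1.29, 4.97, 2.08 and 2.35 CPM with the control ASO, and 16.4, 20.4, 13.7 and 21.6 CPM untransfected. The mix and control ASO libraries overlapped, and both lay below every untransfected library. Against the control ASO it fell by 1.41 ± 0.36 on the log2 scale (adjusted p = 0.00678), from -2.70 in mouse 2 to -0.44 in mouse 4, and it was not called when mouse 3 was left out (adjusted p = 0.0583). Leaving out mouse 2 moved the value to -0.78, still called (adjusted p = 0.0239).

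Bcan, which encodes the lectican brevican, was called at the margin (-0.44 ± 0.18, adjusted p = 0.0493). It had 1.90, 3.86, 2.43 and 2.74 CPM with the mix and 2.75, 3.20, 3.94 and 5.07 CPM with the control ASO, and it was higher, not lower, in mouse 2. It was also called with library size scaling (adjusted p = 0.0118), with no filter (0.0389) and when mouse 2 was left out (0.00725). Under the other alternatives run it was not called, with adjusted p of 0.0605 to 0.242, including the fit without the mouse as a block (0.174), the DESeq2 Wald test (0.105) and leaving out mouse 1 (0.147), mouse 3 (0.219) or mouse 4 (0.242).

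Glul and Sparcl1 rose, by small amounts. Glul, glutamine synthetase, which converts glutamate taken up by glia (ENSMUSG00000026473, chromosome 1, 153899944 to 153909723), had 513, 521, 435 and 286 CPM with the mix and 432, 387, 368 and 241 CPM with the control ASO. The groups overlapped because mouse 4 was lowest in each, but 4 of 4 mice were higher with the mix. Glul rose by 0.29 ± 0.05 on the log2 scale (1.23-fold, adjusted p = 0.000109), a call that needs the mouse as a block (adjusted p = 0.374 without it). Its exons overlap Teddm2 on the other strand and Mir8114 on the same strand. These genes had at most 38 and 3 counts in any library, and how such reads were counted is not given.

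Sparcl1, the matricellular protein hevin (ENSMUSG00000029309, chromosome 5, 104079111 to 104113733), varied least between mice. It had 48.0, 43.9, 46.0 and 47.9 CPM with the mix, 39.2, 39.7, 36.5 and 35.5 CPM with the control ASO, and 42.1, 44.3, 44.9 and 42.5 CPM untransfected. The mix libraries all lay above the control ASO libraries, and Sparcl1 rose by 0.30 ± 0.06 on the log2 scale (1.23-fold, adjusted p = 0.000641).

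Apoe, the lipid carrier (ENSMUSG00000002985, chromosome 7, 19696109 to 19699188), had 149, 244, 176 and 169 CPM with the mix and 143, 189, 143 and 165 CPM with the control ASO. It was higher with the mix in 4 of 4 mice, but the difference of 0.19 ± 0.09 did not pass (adjusted p = 0.0837, 95% interval -0.0010 to 0.38), although it did without mouse 4 (0.25, adjusted p = 0.000551), with the DESeq2 Wald test (0.0369), with no filter (0.00815) and in a fit of the compared groups only (0.0258). Ptn, a heparin-binding growth factor, was also higher in 4 of 4 mice but not called (0.23 ± 0.10, adjusted p = 0.0694), and passed without mouse 4 (0.28, adjusted p = 0.0292) and with the stricter filter (0.0372). Slc1a3, the glutamate transporter GLAST, was higher in 2 mice and lower in 2 (0.65 ± 0.42, adjusted p = 0.199, 95% interval -0.23 to 1.53). Without mouse 4, 8 of the 10 markers were called in this comparison, 4 higher and 4 lower.

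**Figure D2:**
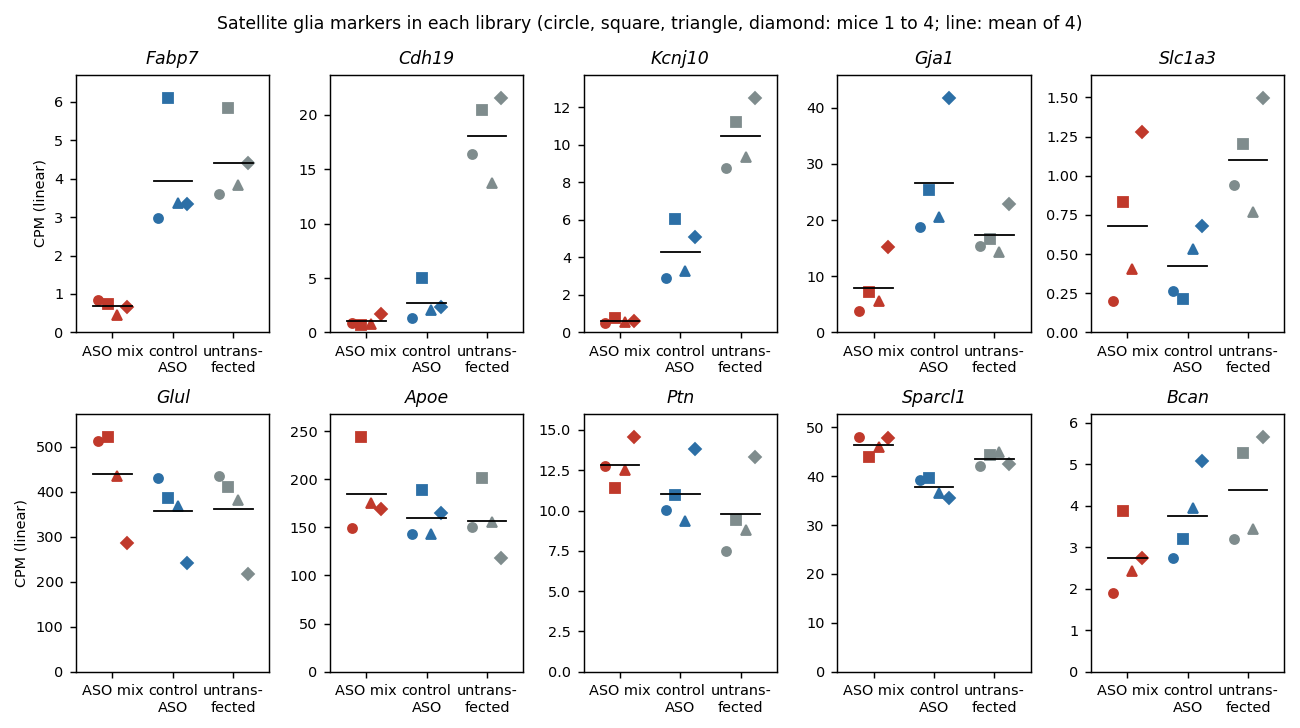
CPM of each satellite glia marker (linear axes from 0) in the 4 libraries of each group; symbols mark mice 1 to 4 and lines the group mean. Kcnj10 steps down over the 3 groups, Fabp7 is low with the mix, Cdh19 is low with either ASO, and mouse 4 is highest for Gja1 and lowest for Glul in each group.

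With the control ASO against untransfected cultures, 4 of the 10 markers fell (Cdh19, Kcnj10, Slc1a3 and Sparcl1) and 1 rose (Gja1). Here 24.2% of all tested genes were called, 10.5% higher and 13.7% lower (43.5% of calls higher, or 55.4% with scaling by library size only), and the median log2 fold change was -0.19 over the markers and 0.03 over all genes. Both comparisons use the same control ASO libraries, so their values are given side by side and are not independent of each other. Cdh19 fell by 2.77 ± 0.24 on the log2 scale (6.82-fold lower, adjusted p = 1.11e-05) and Kcnj10 fell by 1.30 ± 0.13 (2.47-fold lower, adjusted p = 5.09e-07), each in 4 of 4 mice and without overlap.

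The other 3 calls were weaker. Slc1a3 had 0.266, 0.210, 0.533 and 0.680 CPM with the control ASO, against 0.944, 1.20, 0.769 and 1.50 CPM untransfected (-1.43 ± 0.39, adjusted p = 0.0108). It was not called when mouse 2 was left out (adjusted p = 0.0848) or in a fit without the mouse as a block (0.0584). Gja1 rose by 0.58 ± 0.14 (adjusted p = 0.0107), higher in 4 of 4 mice though the groups overlapped, but was not called on leaving out mouse 2 (adjusted p = 0.0776), mouse 3 (0.0768) or the block (0.345). Sparcl1 fell by 0.20 ± 0.06 (adjusted p = 0.0261) but was not called on leaving out mouse 1 (adjusted p = 0.0533), mouse 2 (0.0598) or mouse 3 (0.142), or with scaling by library size only (0.0780). With mouse 2 left out 2 markers were called in all, with mouse 3 left out 3, and in the fit without the block 3.

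Fabp7 (-0.18 ± 0.16), Apoe (0.05 ± 0.09), Ptn (0.19 ± 0.10) and Bcan (-0.23 ± 0.17) did not pass in this comparison (adjusted p = 0.451, 0.747, 0.208 and 0.354). For Fabp7 the 95% interval was -0.52 to 0.16. Glul was level between these groups, with a 95% interval of -0.11 to 0.11 on the log2 scale.

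The mix against untransfected cultures joins both steps. In it 5 markers fell and 3 rose of 10, where 61.2% of all tested genes were called, 30.1% higher and 31.1% lower. Cdh19 fell by 4.18 ± 0.29 on the log2 scale (18.2-fold lower, adjusted p = 3.18e-07), Kcnj10 fell by 4.08 ± 0.18 (17.0-fold lower, adjusted p = 3.88e-12) and Fabp7 fell by 2.69 ± 0.21 (6.46-fold lower, adjusted p = 6.77e-09). Gja1 fell by 1.22 ± 0.16 (adjusted p = 2.83e-05) and Bcan fell by 0.67 ± 0.18 (adjusted p = 0.00328). All 5 were lower in 4 of 4 mice. Ptn had 12.8, 11.4, 12.5 and 14.5 CPM with the mix, against 7.50, 9.39, 8.82 and 13.3 CPM untransfected, higher in each mouse although the groups overlapped. Bcan had 3.19, 5.27, 3.43 and 5.65 CPM untransfected and Apoe 151, 201, 155 and 118 CPM, and both overlapped the mix libraries. Glul (0.29 ± 0.05, adjusted p = 7.58e-05), Ptn (0.42 ± 0.10, adjusted p = 0.00203) and Apoe (0.23 ± 0.09, adjusted p = 0.0326) rose, but none of these 3 was called in a fit without the mouse as a block (adjusted p = 0.384, 0.0542 and 0.272), which called 5 markers. Apoe was also not called on leaving out mouse 2 (adjusted p = 0.106), mouse 3 (0.0672) or with library size scaling (0.171). Slc1a3 (-0.79 ± 0.36) and Sparcl1 (0.10 ± 0.06) did not pass (adjusted p = 0.0666 and 0.191), though Slc1a3 did with mouse 4 left out (-1.07, adjusted p = 0.0372).

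**Figure D3:**
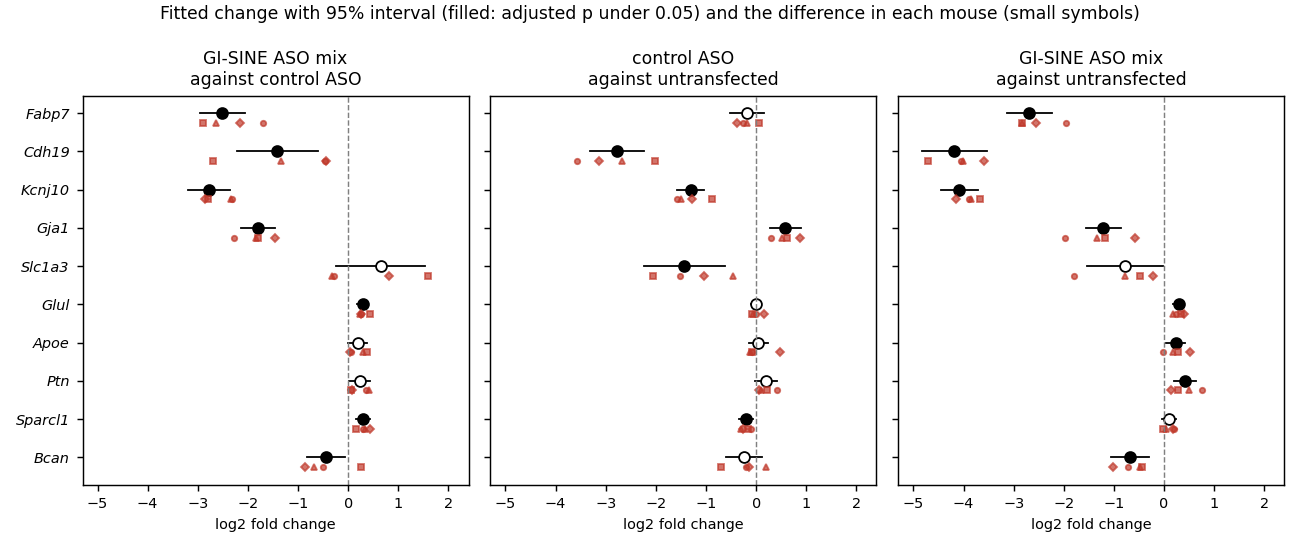
Log2 fold change of each satellite glia marker in the 3 comparisons, with its 95% interval (line; a filled dot has an adjusted p under 0.05) and the difference in each mouse (small symbols, mice 1 to 4 as circle, square, triangle and diamond). Fabp7 lies at -2.51 in the first panel and -0.18 in the second, Cdh19 at -1.41 and -2.77, and Gja1 changes sign between them.

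Whether the markers differed between the steps was tested in the same model, as the mix step (mix minus control ASO) less the control step (control ASO minus untransfected), a contrast added after the values were seen. It called 6 of the 10 markers, 3 higher and 3 lower, against 34.3% of all tested genes, 17.4% higher and 17% lower (50.6% of calls higher, or 29.1% with library size scaling). The mix step was the lower for Gja1 (-2.37 ± 0.25 on the log2 scale, adjusted p = 4.02e-05), Fabp7 (-2.33 ± 0.32, adjusted p = 5.39e-05) and Kcnj10 (-1.47 ± 0.29, adjusted p = 0.000938). It was the higher for Slc1a3 (2.08 ± 0.72, adjusted p = 0.0318), Sparcl1 (0.50 ± 0.11, adjusted p = 0.00234) and Glul (0.29 ± 0.09, adjusted p = 0.0176). For Cdh19 the difference of 1.36 ± 0.55 did not pass (adjusted p = 0.0803), but without mouse 2 it was 2.41 and did (adjusted p = 0.00159), as it did with limma-voom (0.0288) and with no filter (0.000248). Slc1a3 was not called when mouse 1, 2 or 4 was left out (adjusted p = 0.0684, 0.226 and 0.0573), nor Glul when mouse 1, 2 or 3 was (0.0759, 0.139 and 0.0612), and neither was called in a fit without the block (0.0963 and 0.664). Slc1a3 was also not called with the DESeq2 Wald test (adjusted p = 0.0652), nor Glul with library size scaling, which gave 0.14 (adjusted p = 0.242). For Apoe (0.14 ± 0.15), Ptn (0.04 ± 0.18) and Bcan (-0.20 ± 0.31) the difference did not pass (adjusted p = 0.505, 0.896 and 0.639), though for Apoe it did with mouse 4 left out (0.36, adjusted p = 0.00526).

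The counts of called genes in the lists below are to be read against the shares over all tested genes, which were 27.3% higher and 28.8% lower with the mix against the control ASO and 10.5% higher and 13.7% lower with the control ASO against untransfected cultures. Of 16 other satellite glia genes, 15 were tested (all but Scrg1), and against the control ASO 7 fell and 4 rose (median log2 fold change -0.38), the count of 4 lying close to the share over all genes. With the control ASO against untransfected cultures 9 fell and none rose (median -0.93). Lgi4, a secreted glial protein, fell by 1.52 ± 0.31 with the mix and fell by 2.80 ± 0.22 with the control ASO (adjusted p = 0.00251 and 1.67e-05). Aldoc, a glycolytic enzyme, rose by 0.95 ± 0.08 with the mix (adjusted p = 6.64e-08) and Fasn, fatty acid synthase, by 0.39 ± 0.05 (adjusted p = 8.36e-06). Neither passed with the control ASO (adjusted p = 0.284 and 0.634).

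Genes listed as pan-glial had 5 lower and 2 higher of 9 tested with the mix against the control ASO (median -0.42). They had 6 lower and none higher with the control ASO against untransfected cultures (median -0.89). Erbb3, the neuregulin receptor of Schwann and satellite glia, had 1.79 ± 0.880 CPM with the mix, 21.6 ± 9.25 CPM with the control ASO and 41.8 ± 11.9 CPM untransfected. It fell by 3.59 ± 0.19 on the log2 scale with the mix (adjusted p = 3.86e-08), and with the control ASO it fell by 1.00 ± 0.13 (adjusted p = 0.000112). Sox10, the transcription factor of peripheral glia, named here after its values were seen, had 3.16 ± 2.50, 21.3 ± 9.62 and 88.0 ± 21.8 CPM in the same groups. It fell by 2.81 ± 0.41 with the mix (adjusted p = 0.00115), and with the control ASO it fell by 2.11 ± 0.30 (adjusted p = 0.00298). The filament gene Vim fell by 0.72 ± 0.07 with the mix (adjusted p = 1.92e-07), while the calcium-binding protein gene S100b rose by 0.80 ± 0.09 (adjusted p = 6.54e-06). Schwann cell genes had 4 lower and 3 higher of 13 with the mix, both close to the shares over all genes, and 8 lower and 1 higher with the control ASO. The summed level of the pan-glial genes was 1196 to 1339 CPM with the mix, 1231 to 1360 CPM with the control ASO and 1695 to 1985 CPM untransfected. Sox10 and Erbb3 made up little of that sum. Per length, L1cam (115, 96.6 and 93.9 RPKM in the same groups), S100b (97.2, 55.0 and 49.1) and Vim (42.9, 70.1 and 129) lay above both in every group. So did Cadm4 (14.2, 15.3 and 102 RPKM). Which cells made the RNA of these genes was not tested, so the sum is not a measure of glial RNA alone. The sum of the Schwann cell genes was 1161 to 1543, 903 to 980 and 1107 to 1293 CPM in the same groups. Pmp22 (250, 184 and 205 RPKM) and Ngfr (165, 81.8 and 78.8) were the highest of them per length. The Schwann cell gene Mag had no count in the control ASO libraries.

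Markers of the other cells in a ganglion differed in how many were called, against all-gene shares of 28.8% lower and 27.3% higher in the first comparison and 13.7% and 10.5% in the second. Fibroblast genes had 6 lower of 12 with the mix against the control ASO and 9 lower of 12 with the control ASO against untransfected cultures, and none higher in either. Their summed level was 55.6 to 153 CPM with the mix, 105 to 237 CPM with the control ASO and 785 to 1107 CPM untransfected. Mural cell genes had 5 lower and 1 higher of 9, then 4 lower and none higher, with sums of 100.2 to 276 CPM, 113 to 169 CPM and 306 to 521 CPM in the same order of groups. Per length, Rgs5 (40.2, 22.4 and 20.6 RPKM) was the highest of them with either ASO, and Tagln (3.57, 3.04 and 92.0 RPKM) untransfected. Endothelial genes had 3 lower of 9, then 1 higher, with sums of 40.8 to 149, 53.1 to 145 and 47.4 to 163 CPM. The medians of these sums were 47.2, 59.1 and 56.6 CPM, far below the highest library of each group. Macrophage genes had 2 higher of 10, then 1 higher and 1 lower, with sums of 49.0 to 55.1, 23.4 to 34.4 and 22.0 to 33.6 CPM. That sum was carried by Cd68, a lysosomal protein gene, at 41.8 ± 3.45 CPM with the mix, 19.7 ± 3.07 CPM with the control ASO and 16.2 ± 2.42 CPM untransfected. The median log2 fold change of the macrophage list was -0.31, then -0.40, and in each comparison 8 of 10 genes were not called. Pan-neuronal genes had 8 higher and 2 lower of 14, then 4 higher, with sums of 9395 to 11530, 8003 to 9552 and 7081 to 9440 CPM. Proliferation genes had 2 lower and 1 higher of 11, then 10 lower, with sums of 7.55 to 9.38, 7.14 to 11.9 and 29.1 to 48.3 CPM. None of the genes of these 6 lists was at 0 in every library of a group. The part of these differences in the values of the satellite glia markers was not tested.

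**Figure D4:**
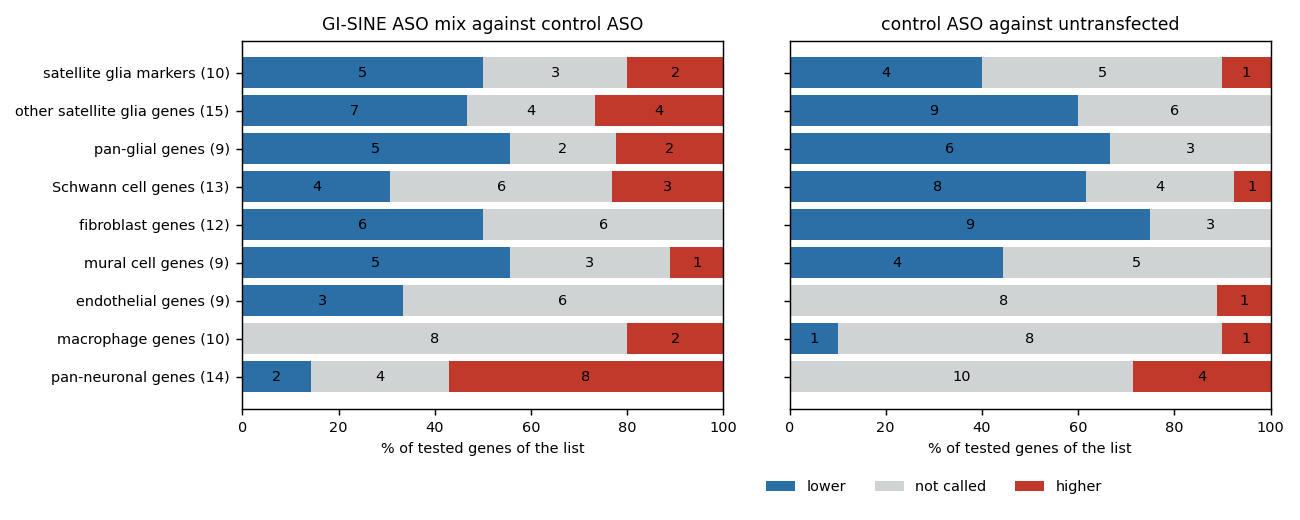
Share of the tested genes of each cell type list that were lower, not called or higher (edgeR, adjusted p under 0.05; counts in the bars, tested genes in brackets) with the mix against the control ASO (left) and the control ASO against untransfected cultures (right). Satellite glia markers have 5 lower and 2 higher of 10 on the left and 4 lower and 1 higher on the right, and fibroblast genes none higher in either panel.

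Families of single markers were counted for the mix against the control ASO, where 27.3% of all tested genes were higher and 28.8% lower. Among inward rectifier channels other than Kcnj10 and Kcnj16, 2 of 9 tested rose with the mix (Kcnj12 by 0.57 ± 0.11 and Kcnj14 by 1.29 ± 0.27, adjusted p = 0.000314 and 0.000567) and none fell. Kcnj16 was counted with the other satellite glia genes and is named here after its values were seen. Its level was 0.0166 RPKM with the mix, 0.0904 RPKM with the control ASO and 0.170 RPKM untransfected. Among connexins and pannexins other than Gja1, with their scaffold gene Tjp1, 4 of 9 fell and 2 rose. The hemichannel gene Panx1 fell by 0.33 ± 0.07 (adjusted p = 0.000448). Of 6 tested relatives of Fabp7, 2 rose and 2 fell. The heart form Fabp3 rose by 0.80 ± 0.08 and the epidermal form Fabp5 by 0.49 ± 0.08 (adjusted p = 2.84e-07 and 6.18e-05), while the retinoid-binding Crabp1 fell by 1.17 ± 0.43 (adjusted p = 0.0371). Of 11 type II cadherins besides Cdh19, 2 rose and 3 fell, with Cdh24 at 2.37 ± 0.15 (adjusted p = 5.12e-09).

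Lists of genes that work with the markers were counted in the same comparison, against the same shares. In glutamate and glutamine handling, 3 of 11 rose and 3 fell with the mix, close to those shares. The transporter gene Slc1a2 fell by 0.82 ± 0.13 and the glutamine carrier gene Slc38a2 rose by 0.40 ± 0.06 (adjusted p = 4.78e-05 and 1.29e-05). In lipid transport around Apoe, 4 of 14 rose and 4 fell: Clu, a second apolipoprotein of glia, rose by 0.39 ± 0.06 and the receptor gene Lrp1 fell by 0.48 ± 0.05 (adjusted p = 4.04e-05 and 1.07e-06). The ligand Mdk, the closest relative of Ptn, rose by 0.47 ± 0.12 (adjusted p = 0.00214), and Sdc4, a syndecan, fell by 1.23 ± 0.15 (adjusted p = 3.67e-05), in a list with 2 higher and 3 lower of 10. Lecticans and their partners had 5 higher and 2 lower of 8, with Vcan at 0.67 ± 0.16 and Tnc, tenascin C, at -1.48 ± 0.26 (adjusted p = 0.0015 and 0.00228). The SPARC family had 3 higher and 2 lower of 7, with Spock1 at 0.60 ± 0.05 and Sparc at -0.73 ± 0.12 (adjusted p = 6.29e-08 and 0.0005).

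The genes whose profiles were most like those of the markers were found as the smallest root mean square difference in log2 CPM over the 12 libraries, each gene centred on its own mean, among 11880 named genes with a mean log2 CPM of at least 1. Slc1a3 was too scarce to be included. Among the genes reported here, Kcnj10 was near to Pdlim4 (0.27), Cdh19 nearest to Lgi4 (0.31) and Nkd2 (0.33), and Fabp7 to Papln and Mdfic (0.44 each). Gja1 was nearest to Efs (0.26) and Pik3c2b (0.31). The abundant markers had closer neighbours, such as Sfxn1 and Rab1a for Sparcl1 (0.061 and 0.062) and Adam8 for Glul (0.12). Within the list, Kcnj10 and Fabp7 were each other's nearest member (0.65), and Cdh19 was nearest to Kcnj10 (0.78).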

How the data were processed

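The authors deposited 1 table of raw counts per Ensembl gene for all 12 libraries. Demultiplexing with bcl2fastq 2.17, the aligner STAR, the counter HTSeq and the build names GRCm38 and mm10 come from the submitters' processing notes. Neither the annotation release nor the strand setting of the counts is given in the sources used here. Kits were TruSeq Stranded RNA, per the labels' protocols. Symbols were found for 48435 of 48795 gene IDs in GENCODE release M21, whose exons gave the lengths for RPKM.

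After edgeR 4.0.16 (R 4.3.3) had removed genes of low count by group and scaled libraries by TMM, its quasi-likelihood test was run on all 12 libraries with terms for condition and mouse. The SE of a log2 fold change is its size over the square root of F. Levels are mean ± SD over 4 libraries. The mouse is a block because the series design makes each number 1 mouse; same-numbered libraries deviated together, at correlations of 0.138 to 0.557. The markers and lists were chosen with earlier results of these data known, and lists are described by counts without a set test. Besides the 10 markers, the genes named are, of each list, up to 4 with the smallest p in the first comparison and in the second. The others are cell type genes that check the tissue or weigh on a sum, Kcnj16, and the 2 nearest profiles of a marker. A few of the genes so chosen are not reported here. Alternatives were no mouse term, size factors or the Wald test of DESeq2 1.42.0, voom in limma 3.58.1, scaling by library size, omission of the 3 most abundant loci, no filter, a stricter filter (10 counts in 4 libraries and mean log2 CPM of 1 or more), the compared groups only (not possible for the difference between the steps), and leaving out each mouse.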

Additional observations from a re-analysis of the deposited data

Results flagged for a closer look

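In 1 of the 30 sets of 4 values (10 markers in 3 groups), a library lay far from the others. Fabp7 had 6.10 CPM with the control ASO in mouse 2, against 2.97 to 3.36 CPM in the other mice of that group. The gap was 0.877 of the group's range, past the critical value of Dixon's test, which chance alone passes in about 1 of 20 sets. Mouse 2 was also the highest untransfected culture for Fabp7, at 5.84 CPM.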

How the results depend on the processing

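Each of 40 fitted differences (10 markers in 3 comparisons and in the difference between the steps) was recomputed under each alternative that allowed it. Slc1a3, at most 1.50 CPM in any library, did not pass the stricter filter and has no value there. Of the alternative values, 442 kept direction and side of the threshold, 37 lost a call, 12 gained one and 15 changed sign. No sign change was of a called value. Glul with the control ASO against untransfected cultures, level in the fit reported, came out at -0.015 without the mouse as a block, -0.0036 with DESeq2 size factors, -0.017 without the 3 most abundant loci, -0.0039 with the DESeq2 Wald test, -0.0040 with limma-voom, -0.012 with no filter, -0.0072 with the stricter filter, -0.016 with the compared groups only, and -0.068 to 0.026 with each mouse left out. Apoe in that comparison ranged from -0.11 to 0.091 with each mouse left out. In the difference between the steps, library size scaling gave -0.017 for Apoe and -0.12 for Ptn, and leaving out each mouse gave -0.024 to 0.10 for Ptn and -0.64 to 0.037 for Bcan.

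Without the mouse as a block, the markers called were 3 with the control ASO against untransfected cultures and 5 with the mix against untransfected cultures, and 2391 and 3472 genes were called in all for the control ASO comparison and the difference between the steps (4081 and 5776 with it). With each mouse left out, 2 to 5 markers and 2540 to 3946 genes were called for the control ASO comparison, and 3150 to 6748 genes for the difference between the steps. The lowest values came without mouse 2 for markers (2), without mouse 3 for the control ASO comparison and without mouse 1 for the difference between the steps, where leaving out mouse 2 or 3 gave 3481 and 3513. These fits hold fewer libraries. Scaling by library size only moved the median of all genes by -0.12 in the mix against control ASO comparison and by -0.16 in the difference between the steps. Kcnj10, Fabp7 and Gja1 kept their fall against the control ASO under every alternative run. Counts of 4 to 35 limit what can be said of Slc1a3, and low counts with the mix limit the precision of the falls of Fabp7, Kcnj10 and Cdh19.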
